A study of Mus musculus with 8 samples.

Results

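The semaphorins, plexins and neuropilins are the ligands and receptors of a cell guidance system. All 31 such genes of the list used here were found by their symbol in the deposited count table, among 54532 genes in all. They comprised 20 semaphorins, 9 plexins and 2 neuropilins. The RNA came from mouse atria, right and left, labelled as mixed cells. All mice were Chd4flox/flox, so both groups carried the floxed alleles. The 4 KO libraries came from mice injected on postnatal day 2 with AAV9:Nppa-Cre, and the 4 control libraries came from mice injected on the same day with AAV9:Nppa-EGFP. AAV9 is a viral vector that reaches the heart, and the Nppa promoter directs Cre or EGFP mainly to atrial muscle cells, so endothelial cells, fibroblasts and other cells were not the intended target. Chd4 encodes the ATP-dependent remodeller of the NuRD complex. Cre was given to the KO mice alone and EGFP to the control mice alone, so what either protein does by itself and what losing Chd4 does cannot be told apart. The sources used here give neither the age at collection nor how many mice went into a library.

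Semaphorins share an extracellular sema domain that binds plexins, and plexins carry a cytoplasmic domain that acts on small GTPases and thereby on the cytoskeleton and on adhesion. Class 3 semaphorins are secreted and mostly bind neuropilins, which have a short cytoplasmic tail and hand the signal to plexins of the A and D types. The other vertebrate classes stay on the membrane and mostly bind plexins directly. The heart uses the system for outflow tract septation, vessel patterning and sympathetic innervation, and the neuropilins also serve as co-receptors of the VEGF receptors.

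Depth ran between 34002292 and 38228982 counts for KO, and between 39804625 and 40588007 counts for control. Levels are given as CPM, a gene's count per 1e+06 counts of its library after scaling by TMM factors, and a gene was called when its edgeR quasi-likelihood test gave a Benjamini-Hochberg adjusted p under 0.05 over 18033 tested genes. The targeted gene, Chd4, averaged 185 ± 12.4 CPM over the KO libraries and 292 ± 13.3 CPM over the controls (SD, n = 4 each), a log2 fold change of -0.66 (edgeR adjusted p = 1.86e-05). KO and control parted along the first principal component (60.0% of the variance), while KO 2 and control 2 stood apart along the second (20.3%). No library name prefix occurred in both groups, so whatever a prefix stands for and the injected vector cannot be told apart. The Y-linked gene Ddx3y was under 1 CPM in KO 2 and in controls 1 and 2, and above 100 CPM in the other 5 libraries.

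In the KO atria 11 of the 31 genes rose and 1 fell, while 19 were not called. The secreted ligand gene Sema3b rose most, 4.25-fold, followed by the membrane ligand gene Sema5a, 2.31-fold, and the co-receptor gene Nrp1 rose 1.51-fold. Sema4b was the member that fell, 1.66-fold. All 31 members passed the filter on low counts, the least counted of them with 123 reads over the 8 libraries. The called share was 38.7% of the members, against 27.9% of all tested genes. The share called higher was 35.5%, against 14.8% of all tested genes, and the share called lower was 3.23%, against 13.1% of all tested genes. With libraries scaled by total counts alone, 3695 genes were called higher and 1583 lower over all genes, against 2677 and 2355 with TMM factors, and the members then stood at 12 higher and 1 lower. The members' median log2 fold change was 0.18 and that of all tested genes 0.01. The KO and control libraries did not overlap for 10 members, a share of 32.3%, against 29.2% of all tested genes. KO lay above control for 9 of these members and below for 1, against 15.3% and 13.9% of all tested genes. Without KO 2 and control 2, an alternative chosen after seeing the data, 10 members were called higher and 1 lower. In libraries with Ddx3y above 100 CPM alone, also chosen after seeing the data, 8 were called higher and 1 lower.

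**Figure D1:**
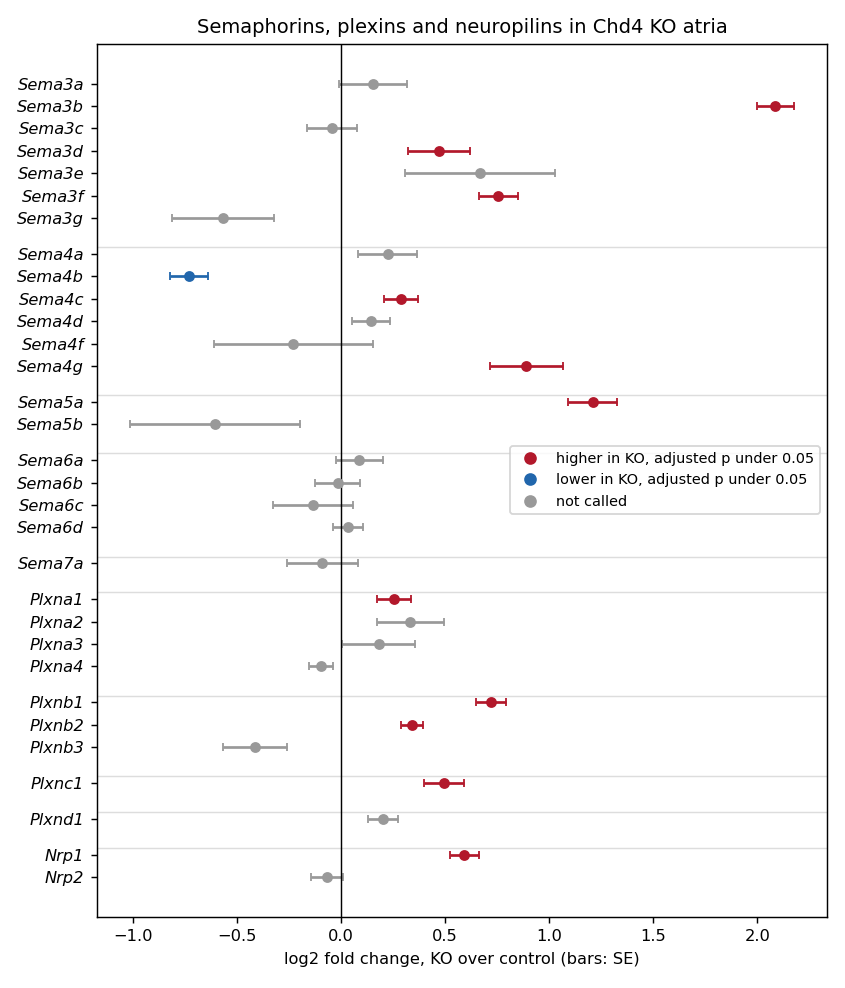
Log2 fold changes of KO over control for the 31 genes, grouped by class, with bars of 1 SE from the edgeR fit on 4 libraries a group; red marks higher and blue lower at an adjusted p under 0.05, and grey marks genes not called. Sema3b stands at 2.09 and Sema5a at 1.21, Sema4b stands at -0.73, and the 4 class 6 genes lie between -0.13 and 0.09.

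Of the 7 secreted class 3 genes, 3 rose and 4 were not called, a called share of 42.9%, against 27.9% of all tested genes. Sema3b (ENSMUSG00000057969, chromosome 9, 107597674 to 107609229 on GRCm38) encodes a neuropilin ligand known in human as a tumour suppressor candidate. It had 40.1, 42.0, 39.2 and 38.0 CPM in KO libraries 1 to 4, against 11.0, 8.82, 9.46 and 8.22 CPM in control libraries 1 to 4. Every KO library lay more than 3-fold above every control library, and the groups did not overlap. The log2 fold change was 2.09 (SE 0.09, edgeR adjusted p = 4.31e-08), and it stayed between 2.03 and 2.17 with any 1 library left out. Sema3f (ENSMUSG00000034684, chromosome 9, 107681500 to 107710475) encodes a repellent that acts mainly through neuropilin 2. It had 57.6, 41.5, 47.6 and 47.4 CPM in KO libraries, against 27.7, 27.0, 31.4 and 28.7 CPM in control libraries. The lowest KO library was above the highest control library, and the log2 fold change was 0.76 (SE 0.09, edgeR adjusted p = 0.000109).

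Sema3d, a ligand of the second heart field and epicardium that shapes pulmonary vein connection in mice, rose 1.39-fold with groups that overlapped. It had 62.5, 74.2, 46.3 and 59.1 CPM in KO libraries, against 48.3, 34.8, 48.4 and 43.0 CPM in control libraries. KO 3 lay below controls 1 and 3. The call (edgeR adjusted p = 0.0406) was lost without any 1 library other than KO 3 (adjusted p = 0.0518 to 0.0963), against controls 1 and 2 alone (0.137) and against controls 3 and 4 alone (0.162), and it held in 7 of 21 alternatives. The Sema3d promoter is shown because among the called members matched to RefSeq only its window held the T-box core AGGTGT, the letters bound by TBX5 and its relatives. The window runs from 250 bases before to 50 bases after the RefSeq start, and the capitals mark the match, which lies on the opposite strand and begins 211 bases before the start:

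Sema3d (GRCm38.p6, chr5:12382916-12383215, plus strand): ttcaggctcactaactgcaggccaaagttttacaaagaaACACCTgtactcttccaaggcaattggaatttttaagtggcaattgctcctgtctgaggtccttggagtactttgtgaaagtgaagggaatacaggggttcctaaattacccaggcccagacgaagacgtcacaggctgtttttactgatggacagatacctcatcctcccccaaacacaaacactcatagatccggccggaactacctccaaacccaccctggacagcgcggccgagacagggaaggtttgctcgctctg

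The T-box core was searched on both strands in RefSeq promoter windows of GRCm38.p6, which matched 26 of the 31 members with 37 windows (some genes have several starts). It was present in 6 of these windows (16.2%), which belong to Sema3d, Sema3g, Sema4a, Sema4f and Sema6d, and in 13.7% of 32851 windows of all genes. A match is a description of the letters alone. No entry was used for Sema3b, Sema3f, Sema6a, Plxna1 and Plxna4.

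The other class 3 genes were not called. Sema3c, which guides cardiac neural crest cells in the outflow tract, was the highest of them per length, and had 59.8, 76.1, 53.8 and 66.1 CPM in KO libraries, against 70.2, 55.7, 76.8 and 60.9 CPM in control libraries (edgeR adjusted p = 0.828). Its groups overlapped over most of their range. Sema3a, which sets the pattern of sympathetic nerves in the mouse heart, averaged 15.6 ± 3.08 CPM in KO and 14.1 ± 2.48 CPM in control (SD, n = 4 each). Sema3e, the ligand of plexin D1 on vessels, averaged 5.47 ± 0.694 CPM in KO and 3.44 ± 1.76 CPM in control, where control 2 was at 1.16 CPM. Sema3g, an endothelial semaphorin, averaged 5.16 ± 1.81 CPM in KO and 7.63 ± 1.61 CPM in control (edgeR adjusted p = 0.113), and it was called lower without KO 4 (adjusted p = 0.0434) and by limma-voom (0.0241). Per length of merged exons, Sema3b took 22.9% ± 1.45 of the summed class 3 level in KO and 7.90% ± 0.802 in control (SD, n = 4 each). Sema3c took 24.5% ± 2.51 in KO and 37.0% ± 1.86 in control.

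Sema3b and Sema3f lie on the same strand of chromosome 9 with starts 101.2 kb apart, while Sema3a, Sema3c, Sema3d and Sema3e lie on chromosome 5. Because the neighbours on chromosome 9 both rose, the genes within 150 kb on either side of them were examined after these values were seen. Of the 19 other tested genes in this window, 3 rose, 2 fell and 14 were not called, which is near the shares of all tested genes called higher (14.8%) and lower (13.1%). Gnai2, a G protein subunit gene that lies between them, rose 1.19-fold to 289 ± 3.60 CPM in KO, against 243 ± 19.4 CPM in control (edgeR adjusted p = 0.0113). Slc38a3, an amino acid transporter gene also between them, averaged 56.1 ± 4.35 CPM in KO and 63.6 ± 7.45 CPM in control (edgeR adjusted p = 0.141). Lsmem2, named for a membrane protein but listed as a long non-coding RNA in the annotation used here, fell 1.69-fold. It averaged 6.70 ± 1.11 CPM in KO, against 11.3 ± 0.926 CPM in control (edgeR adjusted p = 0.00108). Hyal1 and Nat6, whose positions overlap on 1 strand, rose 1.35-fold and 1.19-fold, and Nprl2 fell 1.21-fold. The call of Nat6 (edgeR adjusted p = 0.0457) was lost without KO 2, KO 3, control 1 or control 4 (up to 0.134), and that of Nprl2 (0.0167) without KO 2 (0.0505).

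**Figure D2:**
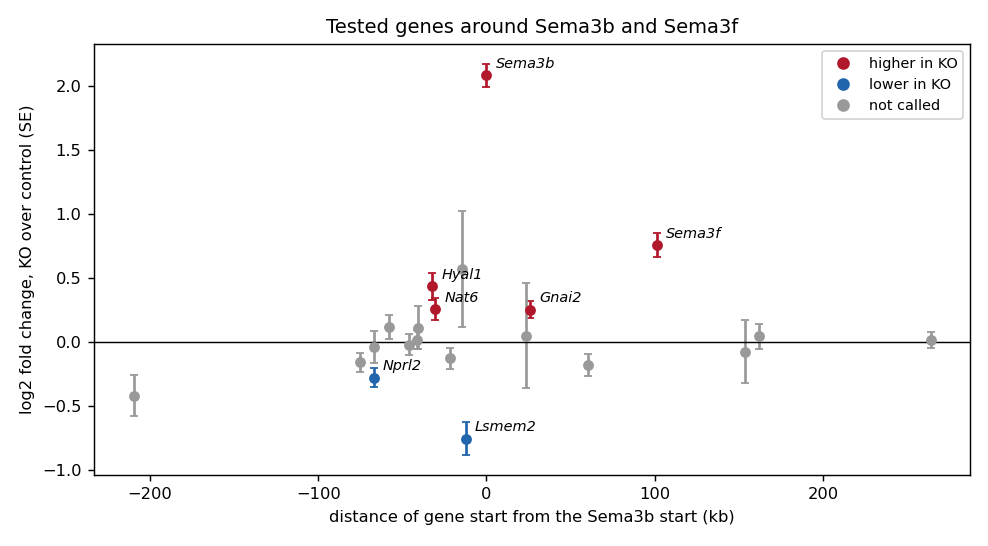
Log2 fold change of KO over control (bars of 1 SE, edgeR fit) against the distance in kb of each tested gene's start from that of Sema3b, for the tested genes within 150 kb of the Sema3b and Sema3f pair. Sema3b at 2.09 and Sema3f at 0.76, 101.2 kb apart, stand above the genes between and around them.

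Of the 6 class 4 genes, which encode transmembrane ligands that mostly bind B-type plexins, 2 rose, 1 fell and 3 were not called. The called share was 50%, against 27.9% of all tested genes. Sema4b (ENSMUSG00000030539, chromosome 7, 80186841 to 80226527), whose protein binds the synaptic scaffold PSD-95, had 13.8, 10.6, 10.7 and 11.6 CPM in KO libraries, against 19.1, 19.6, 19.4 and 19.2 CPM in control libraries. The control libraries lay within 1 CPM of each other, and every KO library was below them. The log2 fold change was -0.73 (SE 0.09, edgeR adjusted p = 0.000133). Sema4g (ENSMUSG00000025207, chromosome 19, 44989101 to 45003397), known as a plexin B2 ligand in mice, was low in both groups, with 2.36, 2.60, 2.89 and 3.28 CPM in KO libraries, against 1.48, 1.46, 1.38 and 1.68 CPM in control libraries. The groups did not overlap, and the log2 fold change was 0.89 (SE 0.18, edgeR adjusted p = 0.00282).

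Sema4c, another plexin B2 ligand, rose 1.22-fold, with 28.4, 25.4, 31.7 and 29.2 CPM in KO libraries, against 21.5, 22.8, 25.2 and 24.3 CPM in control libraries. The gap between the groups was small, and the call (edgeR adjusted p = 0.0203) held in 16 of 21 alternatives. It was lost without KO 3 (0.0682), KO 4 (0.0504) or control 1 (0.0678) and against controls 3 and 4 alone (0.213). In libraries with Ddx3y above 100 CPM alone it was lost too (0.0960). A gene on the opposite strand covers 7.27% of the Sema4c exon bases, and the strand setting of the counting was not given in the sources used here, so reads of the pair may not be told apart. Sema4d, the ligand of plexin B1, had 36.0, 39.7, 44.2 and 37.3 CPM in KO libraries, against 31.4, 34.8, 41.5 and 34.4 CPM in control libraries (edgeR adjusted p = 0.261), with groups that overlapped. Sema4a, which acts in immune cells and on plexin D1, averaged 7.27 ± 0.873 CPM in KO and 6.23 ± 0.980 CPM in control. Sema4f was under 1 CPM in every library.

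Sema5a was the only called gene of the class 5 pair, transmembrane ligands with thrombospondin repeats. Sema5a (ENSMUSG00000022231, chromosome 15, 32244810 to 32696341), for which plexin B3 is a known receptor in human, had 46.9, 54.0, 56.5 and 71.6 CPM in KO libraries, against 22.3, 23.8, 26.0 and 26.9 CPM in control libraries. The lowest KO library was above the highest control library, and the KO libraries were spread more widely, with KO 4 highest. The log2 fold change was 1.21 (SE 0.12, edgeR adjusted p = 3.85e-05) and lay between 1.08 and 1.29 with any 1 library left out. Sema5b, the lowest member per length, had 0.354, 0.273, 0.245 and 0.406 CPM in KO libraries, against 0.520, 0.176, 0.714 and 0.534 CPM in control libraries (edgeR adjusted p = 0.301), and its groups overlapped. None of the 4 class 6 genes was called, by edgeR or under any alternative. Sema6d, a plexin A1 ligand known from chick heart development, had 124, 105, 103 and 107 CPM in KO libraries, against 107, 118, 100.4 and 103 CPM in control libraries (log2 fold change 0.04, SE 0.07, edgeR adjusted p = 0.761). Sema6c, the highest class 6 gene per length, had 59.2, 79.5, 83.3 and 56.3 CPM in KO libraries, against 63.5, 60.9, 97.7 and 83.5 CPM in control libraries (edgeR adjusted p = 0.646), and its groups overlapped. Sema6a averaged 17.7 ± 2.90 CPM in KO and 16.7 ± 1.15 CPM in control, and Sema6b averaged 11.7 ± 1.20 CPM in KO and 11.8 ± 1.36 CPM in control. Sema7a, the GPI-anchored ligand of plexin C1 and of integrins, had 18.3, 17.2, 12.2 and 17.2 CPM in KO libraries, against 21.3, 14.1, 13.7 and 19.9 CPM in control libraries (edgeR adjusted p = 0.738).

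The promoters of the strongest called transmembrane ligand in each direction that RefSeq matched are shown because they can be set beside each other by their CpG content. NuRD complexes with the protein MBD2 are known to bind methylated CpG, and DNA methylation was not measured here. Capitals mark CG dinucleotides in windows of 300 bases:

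Sema5a (GRCm38.p6, chr15:32244563-32244862, plus strand): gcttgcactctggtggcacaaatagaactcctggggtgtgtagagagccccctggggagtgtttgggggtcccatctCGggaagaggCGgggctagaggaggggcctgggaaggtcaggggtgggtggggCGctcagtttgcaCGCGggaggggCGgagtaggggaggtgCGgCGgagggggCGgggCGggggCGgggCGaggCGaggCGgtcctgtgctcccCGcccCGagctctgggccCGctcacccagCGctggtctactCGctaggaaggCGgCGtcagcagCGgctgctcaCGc

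Sema4b (GRCm38.p6, chr7:80186620-80186919, plus strand): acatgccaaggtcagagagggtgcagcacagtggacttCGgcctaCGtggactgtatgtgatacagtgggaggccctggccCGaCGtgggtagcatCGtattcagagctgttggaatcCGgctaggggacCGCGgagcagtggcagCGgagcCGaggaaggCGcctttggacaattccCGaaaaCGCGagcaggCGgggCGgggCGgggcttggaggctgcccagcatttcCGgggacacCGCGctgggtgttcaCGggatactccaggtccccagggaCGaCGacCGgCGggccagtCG

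The Sema5a window held 23 CG dinucleotides. RefSeq gives Sema4b 2 starts, and the window of the upstream one, which is shown, held 26 and the other 28, against a median of 15 over the 37 windows of the members and 7 over all 32851 windows. The riser and the faller were thus close in this count, which was chosen after their values were seen.

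Of the 9 plexins, 4 passed the edgeR test as higher and 0 as lower, and DESeq2 added Plxnd1 as higher and Plxnb3 as lower. The share called by edgeR was 44.4%, against 27.9% of all tested genes. Plxnb1 (ENSMUSG00000053646, chromosome 9, 109095389 to 109119917), the receptor of Sema4d, had 74.2, 69.0, 76.0 and 73.9 CPM in KO libraries, against 49.3, 39.1, 43.5 and 45.8 CPM in control libraries. The groups were well apart, and the log2 fold change was 0.72 (SE 0.07, edgeR adjusted p = 2.18e-05). Plxnb2 (ENSMUSG00000036606, chromosome 15, 89155549 to 89180788), the receptor of Sema4c and Sema4g, had 241, 240, 250 and 259 CPM in KO libraries, against 195, 192, 193 and 202 CPM in control libraries. The change was small but the groups did not overlap (log2 fold change 0.34, SE 0.05, edgeR adjusted p = 0.000505). Plxnb3, the third B-type plexin, had 6.22, 6.84, 8.17 and 5.98 CPM in KO libraries, against 8.44, 11.9, 8.11 and 7.79 CPM in control libraries. KO 3 lay above controls 3 and 4, and the gene was not called (edgeR adjusted p = 0.0659). It was called lower in 4 of 21 alternatives. These left out KO 3 (0.0427), used controls 1 and 2 alone (0.0385), used DESeq2 (0.0372) or used no filter on low counts (0.0369). The adjusted p reached 0.174 with 1 library left out and 0.441 over all alternatives.

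Plxnc1 (ENSMUSG00000074785, chromosome 10, 94790866 to 94944835), the receptor of Sema7a, had 38.1, 51.6, 50.2 and 48.2 CPM in KO libraries, against 31.6, 34.6, 36.9 and 30.4 CPM in control libraries. KO 1 was the lowest KO library and still above every control (log2 fold change 0.50, SE 0.10, edgeR adjusted p = 0.00270). In libraries with Ddx3y above 100 CPM alone the adjusted p was 0.0516. Plxna1, which partners with neuropilin 1 and also binds Sema6d, rose 1.19-fold, with 79.0, 77.1, 76.8 and 88.1 CPM in KO libraries, against 67.1, 57.9, 67.2 and 77.0 CPM in control libraries. Control 4 lay just above KO 3. The Plxna1 call (edgeR adjusted p = 0.0376) was lost without any 1 library other than control 4 (0.0540 to 0.110) and against controls 3 and 4 alone (0.318), and it held in 10 of 21 alternatives. An antisense gene covers 10.7% of the Plxna1 exon bases. Other antisense genes cover 2.68% of the Plxnb1 and 0.78% of the Plxna4 exon bases.

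The remaining plexins were not called. Plxnd1, the endothelial receptor of Sema3e, had 150.0, 162, 177 and 173 CPM in KO libraries, against 135, 138, 144 and 158 CPM in control libraries (edgeR adjusted p = 0.0504). KO 1 lay below control 4, and the gene was called higher in 9 of 21 alternatives, with adjusted p from 0.0122 to 0.412 over all of them. Plxna4, an A-type plexin known from axon guidance, had 99.5, 114, 112 and 115 CPM in KO libraries, against 115, 114, 121 and 121 CPM in control libraries (edgeR adjusted p = 0.260), with groups that overlapped. Plxna2, a receptor of outflow tract neural crest cells, averaged 58.0 ± 11.1 CPM in KO and 46.0 ± 8.59 CPM in control. Its edgeR adjusted p was 0.159, and it was called higher without control 2 (0.0388), without both KO 2 and control 2 (log2 fold change 0.57, adjusted p = 0.00249) and in libraries with Ddx3y above 100 CPM alone (0.59, adjusted p = 0.00800). Plxna3 averaged 6.30 ± 0.895 CPM in KO and 5.56 ± 1.37 CPM in control.

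**Figure D3:**
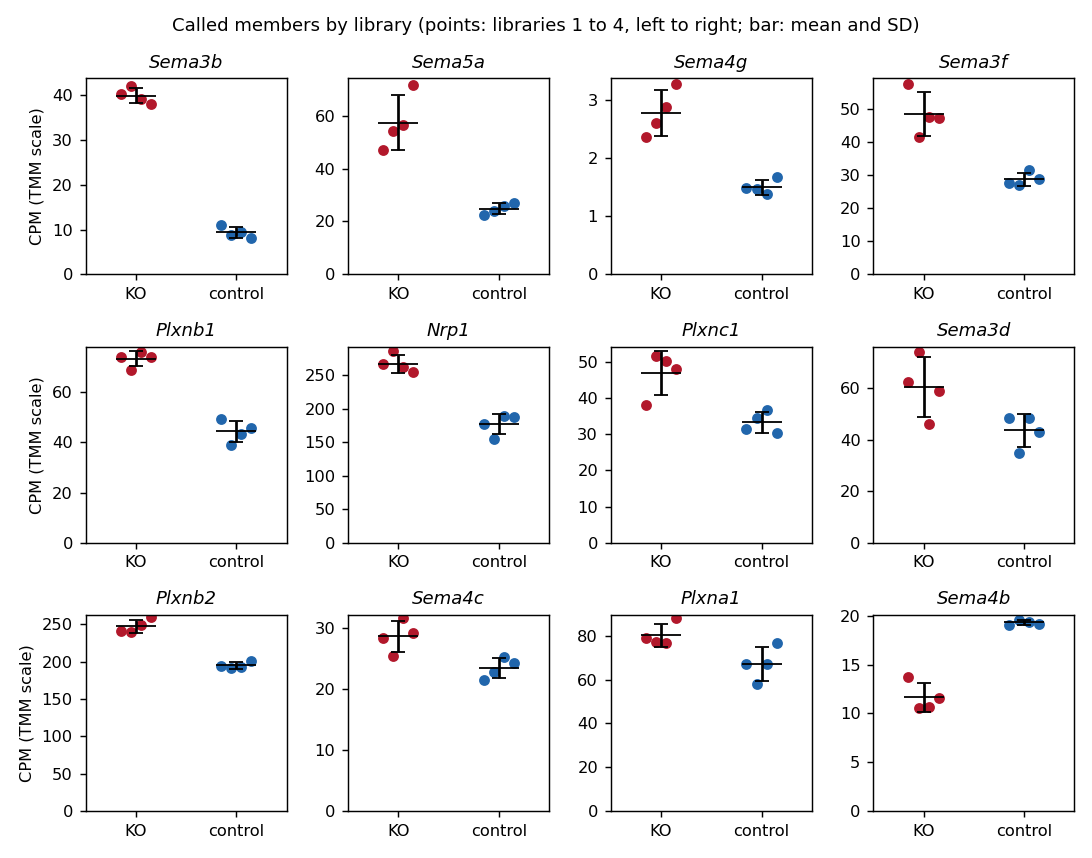
CPM of the 12 called members in each library (points), KO at the left of each panel and control at the right, with the mean and SD over 4 libraries on axes that start at 0. The groups are apart in 10 panels and overlap for Sema3d and Plxna1, and Sema4b is the panel with KO below control.

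Of the neuropilins, Nrp1 rose and Nrp2 was not called. Nrp1 (ENSMUSG00000025810, chromosome 8, 128358604 to 128503363), the co-receptor of Sema3a and of VEGF-A that is strong on endothelial cells, had 267, 286, 262 and 254 CPM in KO libraries, against 177, 155, 188 and 188 CPM in control libraries. All KO libraries were above all control libraries, and the log2 fold change was 0.59 (SE 0.07, edgeR adjusted p = 9.08e-05), between 0.53 and 0.62 with any 1 library left out. Nrp2, the co-receptor of Sema3f and of VEGF-C on lymphatic and venous endothelium, had 41.7, 41.4, 38.3 and 38.6 CPM in KO libraries, against 42.3, 37.4, 39.8 and 48.0 CPM in control libraries. Its groups overlapped (log2 fold change -0.07, SE 0.08, edgeR adjusted p = 0.562). The promoters of Nrp1 and Plxnb1, the receptor genes that rose most of those RefSeq matched, are shown with CG dinucleotides in capitals:

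Nrp1 (GRCm38.p6, chr8:128358823-128359122, plus strand): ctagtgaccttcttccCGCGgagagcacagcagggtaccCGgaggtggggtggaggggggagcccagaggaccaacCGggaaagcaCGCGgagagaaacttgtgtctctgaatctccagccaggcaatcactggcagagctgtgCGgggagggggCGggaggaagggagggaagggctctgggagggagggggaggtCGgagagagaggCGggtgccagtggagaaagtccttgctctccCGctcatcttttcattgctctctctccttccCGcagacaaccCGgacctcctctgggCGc

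Plxnb1 (GRCm38.p6, chr9:109095186-109095485, plus strand): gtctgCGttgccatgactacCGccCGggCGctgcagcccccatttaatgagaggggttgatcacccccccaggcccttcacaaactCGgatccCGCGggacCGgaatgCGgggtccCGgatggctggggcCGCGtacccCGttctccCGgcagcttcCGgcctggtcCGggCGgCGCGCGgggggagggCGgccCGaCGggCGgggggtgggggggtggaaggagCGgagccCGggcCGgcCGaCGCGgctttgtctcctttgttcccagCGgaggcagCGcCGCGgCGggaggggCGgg

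The Nrp1 window held 14 CG dinucleotides and the Plxnb1 window 36, so these risers lay on either side of the members' median of 15. Neither window held the T-box core.

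Levels were compared between genes only per length, as CPM per kb of merged exons. In KO the order began with Plxnb2 at 32.1 ± 1.18, Nrp1 at 27.3 ± 1.38 and Plxnd1 at 22.7 ± 1.67 CPM per kb, and in control with Plxnb2 at 25.3 ± 0.566, Plxnd1 at 19.7 ± 1.42 and Nrp1 at 18.1 ± 1.58 CPM per kb (SD, n = 4 each). In control the ranges of Plxnd1 and Nrp1 overlapped, while in KO those of all 3 receptors were apart. Among semaphorins Sema6c and Sema6d led in both groups, with 11.7 ± 2.33 and 10.4 ± 0.905 CPM per kb in KO and 12.9 ± 2.93 and 10.1 ± 0.729 CPM per kb in control, and their ranges overlapped. Sema3b held place 5 of the 20 semaphorins in KO, with 8.33 ± 0.351 CPM per kb, and place 11 in control, with 1.96 ± 0.250 CPM per kb. Sema5a held place 10 in KO and place 14 in control, and Sema4b place 12 in KO and place 9 in control. The lowest places were held by Sema4g, Sema4f and Sema5b in both groups, all under 1 CPM per kb. Between control libraries the coefficient of variation was 1.21% for Sema4b and 2.24% for Plxnb2, against 51.2% for Sema3e and 22.8% for Sema6c. The Sema4b counts in the controls ran from 735 to 779. Counting error alone would spread such counts by more than 1.21%, so this value is no measure of how tightly the gene is held.

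**Figure D4:**
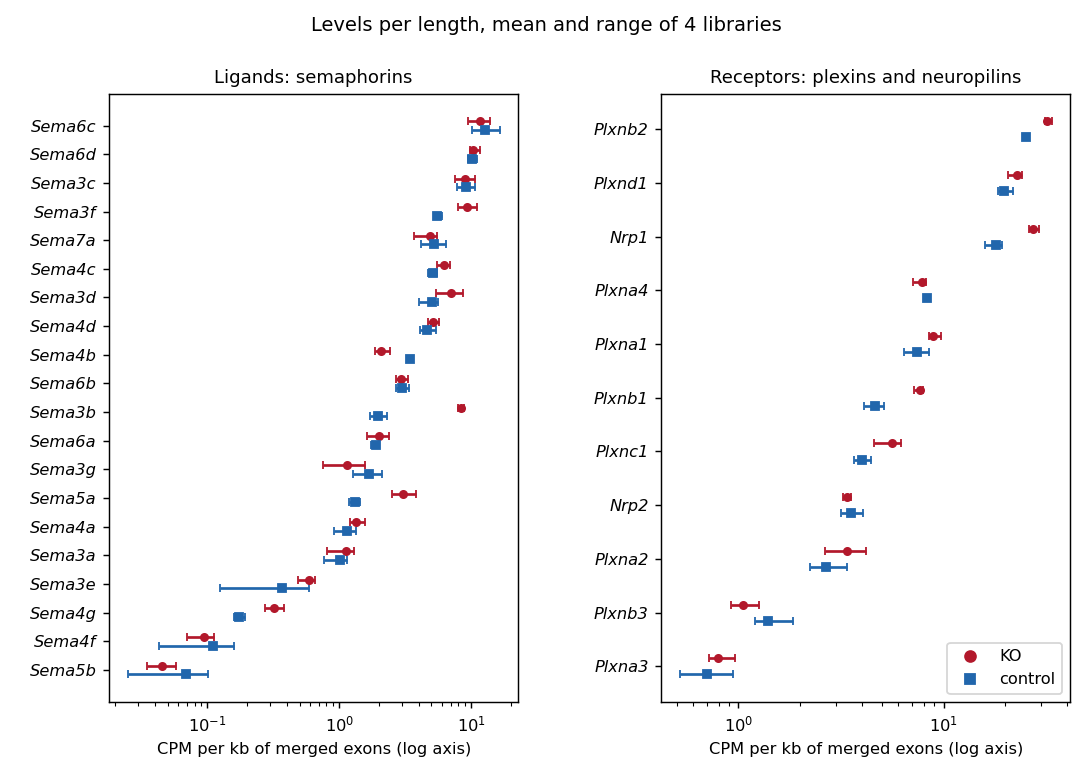
Mean level per length (CPM per kb of merged exons, log axis) with the range of 4 libraries, KO as red circles above control as blue squares, for the 20 semaphorins at the left and the 11 receptors at the right, ordered by control level. Sema3b stands at 8.33 in KO and 1.96 in control, and Plxnb2, Plxnd1 and Nrp1 are the highest receptors in both groups.

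Set out as known ligand and receptor pairs, the genes moved in several combinations. Both genes rose for Sema4c and Sema4g with Plxnb2. For Sema4d with Plxnb1 and for Sema7a with Plxnc1 the receptor gene rose and the ligand gene was not called. For Sema5a with Plxnb3 and for Sema3f with Nrp2 the ligand gene rose and the receptor gene was not called. Neither gene was called for Sema3e with Plxnd1 or for Sema4a with Plxnd1. For Sema6d with Plxna1, and for Sema3a with Nrp1, the receptor gene alone was called. Sema3b and Sema3d, class 3 genes not paired here with a single receptor, rose, as did Nrp1, while Nrp2 was not called. Differences between the genes of a pair were not tested.

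Other genes of the pathway were called at a share close to that of all genes. Of 35 tested partners of the receptors and intracellular effectors, 6 rose, 4 fell and 25 were not called, a called share of 28.6%, against 27.9% of all tested genes, and a median log2 fold change of 0.13. Cntn2, an adhesion protein of axons and of the cardiac conduction system, rose 7.37-fold to 165 ± 40.3 CPM in KO, against 22.3 ± 7.37 CPM in control (edgeR adjusted p = 0.000674). Met, a receptor tyrosine kinase that couples to B-type plexins, rose 1.57-fold to 14.0 ± 1.54 CPM in KO, against 8.88 ± 0.483 CPM in control (edgeR adjusted p = 0.000487). Erbb2, another kinase partner of B-type plexins, fell to 23.5 ± 1.00 CPM in KO, against 31.1 ± 3.22 CPM in control (edgeR adjusted p = 0.00282). Dpysl4, of the collapsin response mediators, fell to 4.40 ± 0.248 CPM in KO, against 6.55 ± 0.301 CPM in control (edgeR adjusted p = 0.00238).

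Among the 8 VEGF ligands and receptors that share the neuropilins, 3 rose, 2 fell and 3 were not called. The called share was 62.5%, against 27.9% of all tested genes. Flt4, the VEGF-C receptor gene of lymphatic and venous endothelium, rose 1.71-fold to 33.9 ± 1.07 CPM in KO, against 19.8 ± 0.290 CPM in control (edgeR adjusted p = 2.72e-06). Its ligand gene Vegfd rose 1.65-fold, and Vegfb fell 1.23-fold (edgeR adjusted p = 0.00293 and 0.00927). Flt1, a VEGF-A and VEGF-B receptor gene, rose 1.17-fold (edgeR adjusted p = 0.0187), and Kdr, the main VEGF-A receptor gene, fell 1.15-fold (0.0313). The Flt1 call was lost without KO 3, control 1 or control 4 (up to 0.0667), and the Kdr call without KO 2, KO 3, KO 4, control 1 or control 4 (up to 0.0973). The count of called genes on this list was 3 at the lowest, without KO 3, control 1 or control 4.

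For comparison, other guidance families had higher called shares than the members (38.7%) and than all tested genes (27.9%). Of 18 tested ephrins and Eph receptors, 8 rose and 3 fell (61.1% called, median log2 fold change 0.26), and of 17 tested Slits, Robos, netrins and their receptors 7 rose and 2 fell (52.9% called, median 0.03). Efnb3 rose 7.97-fold and Slit2 4.28-fold, in the range of Sema3b or above it, while Epha3 fell 2.89-fold. Whether the families differ was not tested.

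Atrial muscle markers were lower in the same libraries and markers of several other cell types were higher. Beside the counts given here and below for each cell type, 14.8% of all tested genes were called higher and 13.1% lower. The bulk libraries cannot tell fewer cells of a type from less RNA per cell. All 9 atrial cardiomyocyte markers fell, with a summed level of 51647 to 62574 CPM in KO and 80984 to 87014 CPM in control. Of 10 endothelial markers, the cells in which Nrp1 and Plxnd1 are strong, 6 rose and 0 fell by edgeR, with a summed level of 2683 to 3047 CPM in KO and 2183 to 2384 CPM in control. Their median log2 fold change was 0.20, and that of Nrp1 was 0.59 and that of Plxnd1 0.20. The endothelial count was 3 at the lowest, without KO 3 or without control 4. Of 8 fibroblast markers 5 rose (median 0.34, summed level 7252 to 9525 CPM in KO and 6260 to 6986 CPM in control). Of 9 macrophage markers 5 rose (median 0.39, 354 to 474 CPM in KO and 310 to 367 CPM in control), and 2 at the lowest with 1 library left out, among KO 2, KO 4 and control 1. Of 7 epicardial markers 4 rose (median 0.33, 709 to 877 CPM in KO and 537 to 699 CPM in control), and 2 at the lowest with 1 library left out, among KO 2, KO 4 and control 4.

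Among the remaining cell types, the Schwann cell and lymphocyte sums were higher in every KO library than in any control library. The lymphatic, the pericyte and smooth muscle, and the neuron lists each held at least 1 marker that fell. Of 5 tested lymphatic endothelial markers 1 rose and 2 fell (median -0.49, summed level 176 to 201 CPM in KO and 217 to 258 CPM in control), and Ccl21a had 0 counts in every library. Of 7 pericyte and smooth muscle markers 2 rose and 1 fell (median -0.015, 427 to 550 CPM in KO and 437 to 528 CPM in control). Of 6 Schwann cell markers 1 rose (median 0.41, 105 to 119 CPM in KO and 68.8 to 87.0 CPM in control). Of 5 tested lymphocyte markers 2 rose (median 0.70, 8.76 to 14.3 CPM in KO and 3.61 to 6.81 CPM in control), and 0 to 2 markers were called by edgeR with 1 library left out. Of 5 tested neuron markers 1 fell (median -1.10), and Chat had 0 counts in every KO library and in every control library but control 1. With 1 library left out, edgeR called 1 to 3 lymphatic, 1 to 3 pericyte and smooth muscle, 1 to 2 Schwann and 0 to 2 neuron markers. The part of these cell types in the results for the semaphorins, plexins and neuropilins was not tested.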

How the data were processed

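Messenger RNA of mouse atria was selected with oligo-dT, per the labels' protocols. The authors' deposited table held raw whole-number read counts per gene for the 8 libraries. The submitters' processing notes name STAR, DESeq2 and the build mm10, without versions. How reads were counted, with which strand setting and annotation release, is not given in the sources used here. Column names were tied to samples through the vector and the library number they share with the titles.

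Counts were tested in R 4.3.3 with edgeR 4.0.16 (filterByExpr with a minimum count of 10 and total of 15, TMM factors, robust quasi-likelihood test, no covariate, 6 residual degrees of freedom), with SEs derived from the fold change and its F statistic. The test was checked on data simulated with the same spread beyond counting error for every gene. That check does not cover genes that vary more than others. DESeq2 1.42.0 and limma 3.58.1 were alternatives, beside other scalings, filters, a replicate block, each library left out, subsets of controls and Ddx3y as a covariate. GENCODE M21 (GRCm38, the assembly of mm10) gave coordinates and merged exon lengths, and promoter windows came from RefSeq (GRCm38.p6).

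The members and lists were chosen with earlier results of these data known. Values in every library are given for called members and for the highest uncalled member of each class. Other lists name up to 4 genes with the smallest p, and called VEGF and partner genes may be added. Per-library values of Plxnb3, Plxnd1 and Nrp2 and the neighbours of Sema3b were chosen after their values were seen. Nothing in the labels ties each library to its own mouse, so the p-values reflect the spread among these libraries only, and that spread may be technical. Within groups, pairs of libraries had a chi-square of 11.2 to 28.2 for each degree of freedom, and none was treated as a copy of another. The summed level of the neuron markers is not reported here.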

Additional observations from a re-analysis of the deposited data

Results flagged for a closer look

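Plxnb3 stood at 11.9 CPM in control 2, apart from the other control libraries, of which the nearest was at 8.44 CPM. The gap took 0.840 of the group's range, above Dixon's 95% critical value for 4 samples. It was the only such library among 64 groups of values examined, where chance gives about 1 in 20.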

How the results depend on the processing

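Of the 12 called members, 8 were called by all 21 alternatives (Sema3b, Sema3f, Sema4b, Sema4g, Sema5a, Plxnb1, Plxnb2 and Nrp1), and no called member changed direction in any of them. Sema3d, Sema4c, Plxna1 and Plxnc1 lost the call in at least 1. Of 19 uncalled members, 4 were called in at least 1 alternative (Sema3g, Plxna2, Plxnb3 and Plxnd1). With 1 library left out, 9 to 12 members were called, 8 to 11 higher and 1 to 2 lower, and over all genes 3915 to 5301, with 2032 to 2687 higher and 1877 to 2614 lower. The other lists together had 74 called genes, and 57 to 71 with 1 library left out. Members called lower numbered 2 with DESeq2, limma-voom, no filter on low counts, or controls 1 and 2 alone. Libraries with Ddx3y above 100 CPM alone, a subset chosen after seeing the data, gave 3011 called genes, 1547 higher and 1464 lower, and 43 on the other lists. Controls 3 and 4 alone gave 1700 higher genes and 46 on the lists, and controls 1 and 2 alone gave 47 on the lists. The cause was not tested, though these fits use fewer samples. Controls 1 and 2 also differ from controls 3 and 4 in both library name prefix and Ddx3y, which cannot be told apart here. The subset with Ddx3y above 100 CPM holds controls 3 and 4 only. Replicate numbers did not pair the libraries (correlations of deviations -0.04, 0.27, -0.07 and 0.08), and with the replicate block 12 members were called, 11 of them shared, and 4757 genes, 2474 higher and 2283 lower. Sema4f and Sema5b, with low counts, had wide errors (log2 SE 0.38 and 0.41), and so did Sema3e (0.36), with higher counts. The cause of the wide errors was not tested.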
